A study of Mus musculus with 16 samples.

Results

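Regeneration-associated genes are the genes that neurons switch on, in varying combinations, when an axon is cut and begins to regrow. 10 of them were taken by symbol from the 24411 gene symbols of the data: the transcription factors Atf3, Jun, Sox11, Klf6 and Klf7, the growth cone and cytoskeleton genes Gap43, Stmn2 and Stmn4, the small proline-rich gene Sprr1a, and the neuropeptide gene Gal. All 10 were among the 16091 genes with a mean above 1 TPM, a level scaled for gene length and library size, in at least 1 group, and so were tested.

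Spinal cord was sequenced from 16 female C57BL/6J mice. 7 of them made up the group SCI + Atorvastatin, another 7 the group SCI + Vehicle, and 2 mice formed the Uninjured Control group. The SCI mice received a lateral compression of the thoracic cord with a 0.25 mm gap at 12 weeks of age. From 2 weeks after injury they were given daily atorvastatin, an inhibitor of cholesterol synthesis, at 10 mg/kg, or its vehicle of DMSO, PEG 400, Tween 80 and saline, for 4 weeks. At 6 weeks a 5 mm segment around the lesion, or the matching segment of the uninjured mice, was taken. The uninjured mice had neither surgery nor injections, so injury, surgery and injection cannot be told apart in comparisons with them, no uninjured mice received the drug, and the sources differ on the age of the uninjured mice. By the paper's account they were younger at collection than the SCI mice, so age may differ in these comparisons too. The labels call the mice of a group biological replicates. The bulk tissue holds neurons, glia, blood vessels, infiltrating cells and any nerve root that was collected, and in it fewer cells of a type and less RNA per cell cannot be told apart.

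After a peripheral nerve is cut, sensory and motor neurons raise Atf3, Jun and Sox11, and effectors such as Gap43, Sprr1a and Gal follow. Neurons of the central nervous system are known to mount this programme weakly. Jun pairs with Fos or ATF family proteins on the AP-1 and CRE elements of target promoters, and Atf3 binds CRE-like elements. The stathmins Stmn2 and Stmn4 bind tubulin and regulate microtubules in neurites. Several of these genes are also used outside neurons: Atf3, Jun and Klf6 respond to stress in many cell types, and Sprr1a belongs to keratinised epithelium.

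Promoters are shown for Atf3, the member with the largest difference between injured and uninjured cord, and for Jun, Klf6 and Sprr1a, whose windows held a match to an AP-1 or CRE-like element. Each is the 250 bases before the gene start in RefSeq on GRCm38.p6, read 5′ to 3′ on the strand of the gene, with matches in capitals.
Atf3 (chr1:191183334-191183583, minus strand): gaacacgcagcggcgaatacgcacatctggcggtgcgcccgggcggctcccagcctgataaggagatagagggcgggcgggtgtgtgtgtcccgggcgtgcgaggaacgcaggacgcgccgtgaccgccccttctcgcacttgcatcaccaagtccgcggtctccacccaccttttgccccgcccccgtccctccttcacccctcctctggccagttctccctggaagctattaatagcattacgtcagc
Jun (chr4:95052223-95052472, minus strand): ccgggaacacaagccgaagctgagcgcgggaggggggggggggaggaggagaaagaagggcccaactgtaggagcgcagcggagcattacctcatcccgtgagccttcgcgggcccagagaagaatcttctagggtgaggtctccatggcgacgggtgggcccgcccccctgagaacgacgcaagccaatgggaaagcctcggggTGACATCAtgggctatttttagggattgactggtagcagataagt
Klf6 (chr13:5861239-5861488, plus strand): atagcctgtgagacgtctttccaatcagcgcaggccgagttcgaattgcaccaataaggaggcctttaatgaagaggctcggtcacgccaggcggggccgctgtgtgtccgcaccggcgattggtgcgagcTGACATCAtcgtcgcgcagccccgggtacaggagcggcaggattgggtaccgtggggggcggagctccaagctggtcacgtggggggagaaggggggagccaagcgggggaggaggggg
Sprr1a (chr3:92485882-92486131, minus strand): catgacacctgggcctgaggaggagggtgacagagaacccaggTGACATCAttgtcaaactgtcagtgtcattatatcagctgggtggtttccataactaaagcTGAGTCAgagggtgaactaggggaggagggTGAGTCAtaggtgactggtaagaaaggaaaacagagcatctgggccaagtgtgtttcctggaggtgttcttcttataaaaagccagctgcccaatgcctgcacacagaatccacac

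The 300 bases from 250 before to 50 after the start were searched on both strands for TGACTCA (AP-1, TGAGTCA on the other strand), TGACGTCA (CRE, the same on both strands) and TGACATCA (a CRE variant, TGATGTCA on the other strand). A window was held for 7 of the 10 members. TGACATCA was found in 4 of the 7, beginning in Jun at 45, in Klf6 at 119 and in Sprr1a at 207 bases before the start, and on the other strand in Sox11 at 42 bases before it. Among the windows of 15236 tested genes, 2.00% held it. TGACTCA was found in Sprr1a only of the 7, with 2 matches, on the other strand, at 146 and 116 bases before the start, against 3.98% of the tested genes' windows. TGACGTCA was in none of the 7, against 2.82%. A match is a description of letters and was not tied to any expression value. The windows of Atf3, Gal and Klf7 held no match, and Gap43, Stmn2 and Stmn4 had no entry.

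In levels per length, the stathmins led. Over the 14 SCI mice the mean was 304 TPM for Stmn2, 241 for Stmn4 and 174 for Gap43, and it was 95.1 for Jun. Klf7 had 31.7 TPM, Klf6 27.8, Atf3 22.9, Gal 16.7, Sprr1a 16.3 and Sox11 4.75. The ranges over SCI mice overlapped between Stmn2 and Stmn4, between Stmn4 and Gap43, and between each pair of neighbours from Klf7 down to Sox11. They did not overlap between Gap43, whose lowest mouse had 139 TPM, and Jun, whose highest had 111, or between Jun, with a lowest mouse of 78.6 TPM, and Klf7, with a highest of 39.3. In the Uninjured Control group the TPM means were 380 for Stmn2, 304 for Stmn4, 173 for Gap43, 53.9 for Jun and 0 for Atf3.

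**Figure D1:**
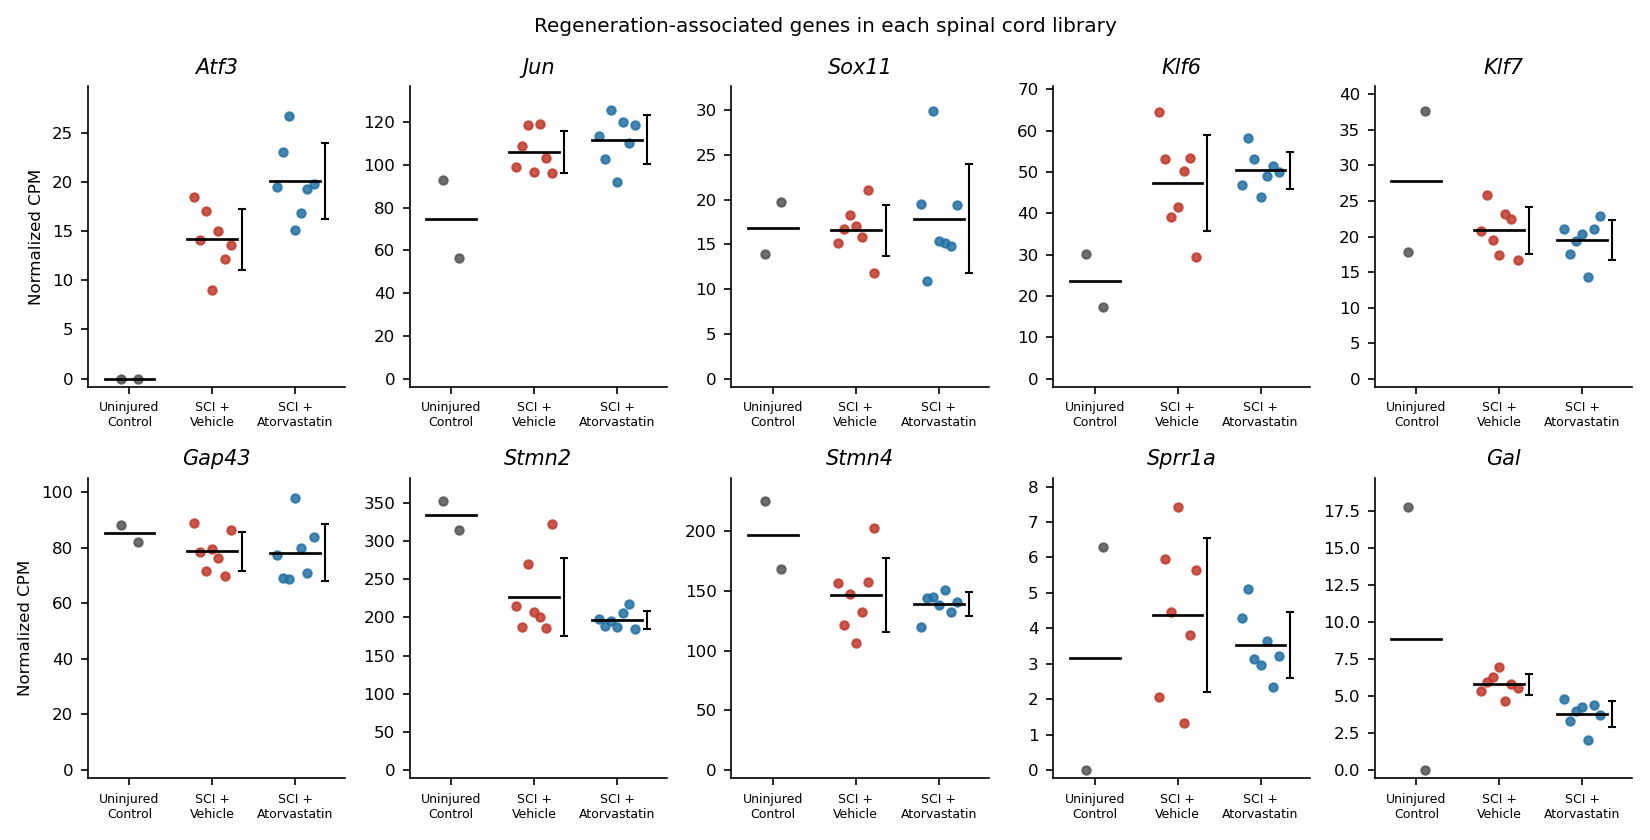
Normalized CPM (counts scaled to library size, y axis, linear, each gene on its own scale) of the 10 genes in each library, by group. Points are mice, horizontal lines are group means, and vertical bars are ±1 SD for the groups of 7; Atf3 was at 0 in both Uninjured Control mice, while Sprr1a and Gal were each at 0 in 1 of them.

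Libraries held 14823292 to 25579826 counts on genes. CPM were scaled by edgeR's TMM factors, and where a library showed no count of a gene, up to 3 counts (0.117 to 0.202 CPM before that scaling) remain possible. These limits cover counting error only. For 3239 genes the SCI mice averaged between 200 and 500 counts, and of these 5.34% had no count in both Uninjured Control mice and a further 20.9% had none in 1 of them, while 0.309% had none in at least 1 of the 14 SCI mice. For the 2014 genes averaging between 50 and 150 counts, the shares were 38.8% in both uninjured mice and 40.7% in 1. The 2 uninjured libraries also held liver marker transcripts, at summed levels of 705 and 4414 CPM over 9 genes, against at most 7.87 CPM in any SCI mouse. Genes were called against the Uninjured Control group at an adjusted p below 0.05 by edgeR's quasi-likelihood test and a log2 fold change beyond 0.32 in size. Both of these comparisons use the same 2 uninjured mice, so they are not independent.

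Of the 10 members, 3 passed this in SCI + Vehicle vs. Uninjured Control: Atf3 and Klf6 were higher and Stmn2 was lower. For SCI + Atorvastatin the number was 5: Atf3, Jun and Klf6 were higher, and Stmn2 and Stmn4 were lower. Of all genes tested, 29.8% were called in the first comparison and 38.9% in the second, so the members' share was near that of all genes in the first and above it in the second, a difference that was not tested. The median log2 fold change of the members was −0.08 in the first and −0.01 in the second, against 0.17 and 0.21 over all genes tested. The ranges of normalized CPM did not overlap for 2 members, Atf3 and Jun, in the first comparison, against 35.6% of all genes. In the second they did not overlap for 4, Atf3, Klf6, Stmn2 and Stmn4, against 44.0% of all genes.

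**Figure D2:**
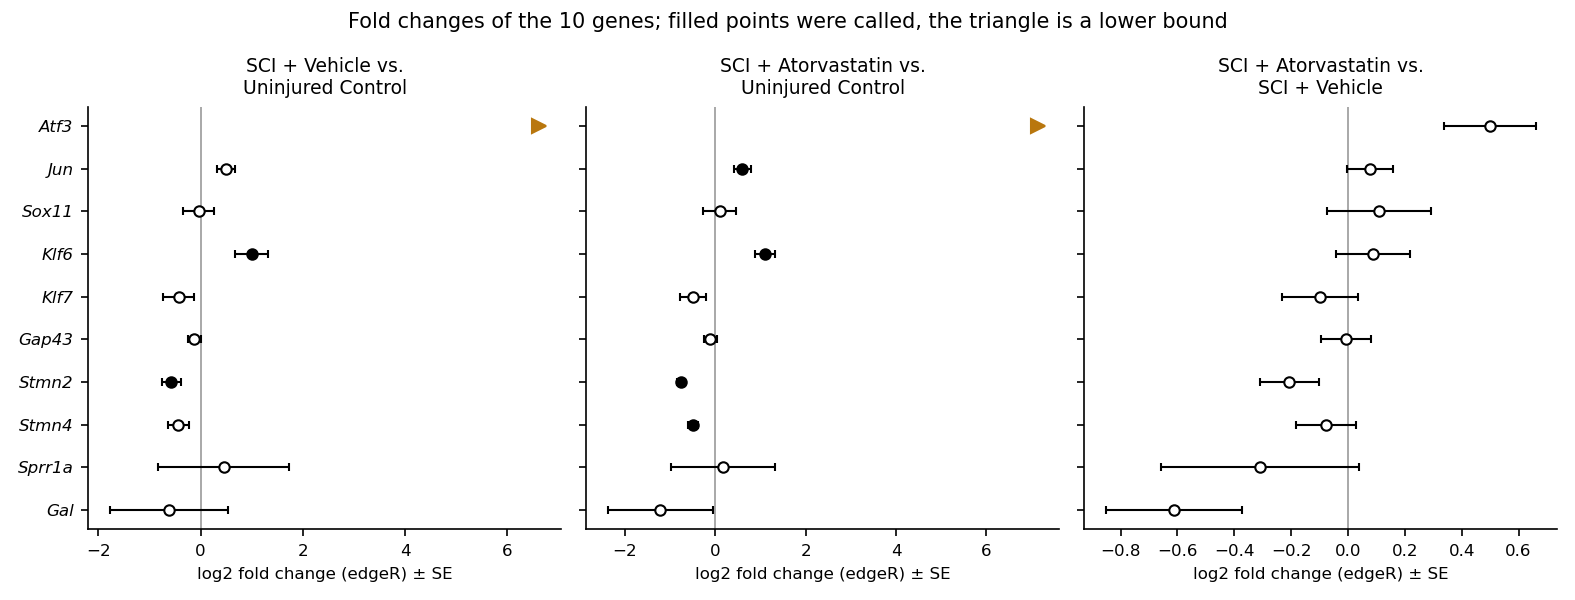
Log2 fold changes of the 10 genes (x axis, edgeR) with standard errors, in the 3 comparisons; the third panel has a narrower axis. Filled points were called and open points were not, and the triangles for Atf3 mark lower bounds of 6.63 and 7.13 against 3 counts per uninjured library. No point is filled in SCI + Atorvastatin vs. SCI + Vehicle.

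Atf3 encodes a stress-induced factor that is low or absent in intact neurons. Neither Uninjured Control mouse had a count of it, and there were 132 to 540 counts in every SCI mouse. Normalized levels were 8.98, 14.1 and 18.5 CPM (lowest, median and highest) in SCI + Vehicle and 15.1, 19.5 and 26.8 CPM in SCI + Atorvastatin. No SCI mouse came near the uninjured ones. Against 3 counts per uninjured library, the mean was at least 99.0-fold higher in SCI + Vehicle and at least 140.1-fold higher in SCI + Atorvastatin. The adjusted p was 6.14e-05 and 9.38e-06, by edgeR. The call was kept without either uninjured mouse, but the mouse that was left also had no count, so this is no separate check. The call was lost in both comparisons in a limma-voom fit with a quality weight for each group, and with a replicate block. Those fits called few of the 16091 genes, 131 and 145 with voom and 83 and 42 with the block.

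Jun, the AP-1 subunit that works with Atf3, had 93.0 and 56.3 CPM in the Uninjured Control mice. There were 96.1, 103 and 119 CPM (lowest, median, highest) in SCI + Vehicle and 92.2, 114 and 126 CPM in SCI + Atorvastatin. All 7 vehicle mice lay above both uninjured mice, and 1 atorvastatin mouse lay just below the higher of them. The log2 fold change was 0.50 ± 0.18 (SE) in SCI + Vehicle, with an adjusted p of 0.0589 by edgeR, which missed the threshold. It passed in DESeq2 (adjusted p = 0.0443), in a single fit of all 3 groups (adjusted p = 0.0169) and on log2(TPM + 1), at 0.79 (adjusted p = 0.0121, limma). Leaving out 1 uninjured mouse gave 0.90, which was called, or 0.18, which was not. In SCI + Atorvastatin it was 0.59 ± 0.18, with an adjusted p of 0.0267. That call was lost without Uninjured Control replicate 2, at 0.27 with an adjusted p of 0.153, and without replicate 1 the value was 1.00. The gene overlaps Junos on the opposite strand by 689 bases on GRCm38, and the strand setting of the counting is not given in the sources used here.

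Klf6, a zinc finger factor that promotes axon growth, had 30.1 and 17.2 CPM in the Uninjured Control mice. It had 29.4, 50.2 and 64.5 CPM (lowest, median, highest) in SCI + Vehicle and 44.0, 50.1 and 58.1 CPM in SCI + Atorvastatin. Vehicle replicate 7 alone overlapped the uninjured mice. Klf6 had a log2 fold change of 1.00 ± 0.32 (SE, adjusted p = 0.0400, edgeR) in SCI + Vehicle and 1.10 ± 0.21 (adjusted p = 0.00248) in SCI + Atorvastatin. The vehicle call was lost when any of vehicle replicates 1, 2, 4, 5 and 6 was left out, with adjusted p of 0.0537 to 0.0701. It was also lost without Uninjured Control replicate 2, where the log2 fold change was 0.64 and the adjusted p 0.130, and on log2(TPM + 1), with an adjusted p of 0.0527 by limma.

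Klf7 (chr1:64029447-64122282 on GRCm38, minus strand), the related factor that also promotes axon growth, had 17.9 and 37.7 CPM in the uninjured mice. SCI + Vehicle mice had 16.7, 20.7 and 25.8 CPM (lowest, median, highest) and SCI + Atorvastatin mice had 14.3, 20.3 and 22.9 CPM. Of the SCI mice, 10 lay between the uninjured mice and 4 below both, and Klf7 was called in neither comparison. Its log2 fold change was −0.43 ± 0.30 (SE, adjusted p = 0.316, edgeR) in SCI + Vehicle and −0.50 ± 0.28 (adjusted p = 0.190) in SCI + Atorvastatin. Without Uninjured Control replicate 1 it was called lower in both, at −0.87 and −0.94, and without replicate 2 the values were positive, at 0.21 and 0.13. The gene overlaps Gm13748 on the opposite strand by 12129 bases.

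Sox11, a developmental factor re-expressed in regenerating sensory neurons, had 13.96 and 19.8 CPM in the uninjured mice. It had 11.8, 16.7 and 21.1 CPM (lowest, median, highest) in SCI + Vehicle and 10.9, 15.3 and 29.9 CPM in SCI + Atorvastatin. The groups overlapped throughout. Sox11 had a log2 fold change of −0.04 ± 0.30 (SE, adjusted p = 0.949, edgeR) in SCI + Vehicle and 0.09 ± 0.36 (adjusted p = 0.869) in SCI + Atorvastatin.

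Gap43 (chr16:42248442-42340651, minus strand), the growth cone phosphoprotein used as a standard label of axon growth, had 88.2 and 82.1 CPM in the uninjured mice. SCI + Vehicle mice had 69.8, 78.6 and 88.9 CPM (lowest, median, highest) and SCI + Atorvastatin mice had 68.7, 77.5 and 97.8 CPM. Of the 7 mice in each SCI group, 5 with vehicle and 6 with atorvastatin lay below the uninjured median, and the ranges overlapped. Gap43 had a log2 fold change of −0.12 ± 0.13 (SE, adjusted p = 0.513, edgeR) in SCI + Vehicle and −0.11 ± 0.14 (adjusted p = 0.578) in SCI + Atorvastatin.

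Stmn2 (chr3:8509360-8561606 on GRCm38, plus strand) had 352.8 and 315 CPM in the uninjured mice. It had 186, 207 and 322 CPM (lowest, median, highest) in SCI + Vehicle and 184, 195 and 218 CPM in SCI + Atorvastatin. Every atorvastatin mouse was below both uninjured mice, and so was every vehicle mouse except replicate 7, whose 322 CPM lay between them. The log2 fold change was −0.75 ± 0.09 (SE, adjusted p = 0.000123, edgeR) in SCI + Atorvastatin, and it was −0.41 (adjusted p = 0.0178, limma) on log2(TPM + 1). In SCI + Vehicle it was −0.57 ± 0.19 with an adjusted p of 0.0431, a borderline call. It was lost, with an adjusted p of 0.0511, when library sizes were summed over the tested genes rather than all genes. That was the first fit made, and the total over all genes was adopted after its calls were seen. The vehicle call was also lost on TPM, where the log2 difference was −0.25, and without any of vehicle replicates 1 to 6, with adjusted p of 0.0508 to 0.0842, and without Uninjured Control replicate 1, with an adjusted p of 0.113, and with no filter beyond 1 count, with an adjusted p of 0.0556.

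Stmn4 (chr14:66344296-66361680, plus strand) had 225 and 168 CPM in the uninjured mice. It had 107, 147 and 203 CPM (lowest, median, highest) in SCI + Vehicle and 120.0, 141 and 151 CPM in SCI + Atorvastatin. Atorvastatin mice lay below both uninjured mice, while vehicle replicate 7 again lay between them. Stmn4 had a log2 fold change of −0.49 ± 0.12 (SE, adjusted p = 0.00781, edgeR) in SCI + Atorvastatin, and −0.44 ± 0.21 (adjusted p = 0.134) in SCI + Vehicle, where it was called without vehicle replicate 7 and without Uninjured Control replicate 2. The atorvastatin call was lost without Uninjured Control replicate 1, at −0.26 with an adjusted p of 0.0969.

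Neuron markers moved with the stathmins. Summed over 12 genes, they had 5717 and 5729 CPM in the uninjured mice, 2957 to 4735 CPM in SCI + Vehicle and 2835 to 3475 CPM in SCI + Atorvastatin. 8 of the 12 were called lower in SCI + Vehicle and 9 in SCI + Atorvastatin, and none was called higher. Microglia and macrophage markers, summed over 10 genes, had 114 and 190.2 CPM in the uninjured mice, 809 to 1165 CPM in SCI + Vehicle and 1007 to 1359 CPM in SCI + Atorvastatin, with 7 and 8 of the 10 called higher. Astrocyte markers, summed over 8 genes, had 8685 and 9235 CPM in the uninjured mice and 12530.2 to 14894 CPM in SCI mice. They did not move as a set: 4 of the 8 were called higher and 1 lower in each comparison. Gfap, 1 of them, had 1670 and 2226 CPM in the uninjured mice. It had 6121 to 7023 CPM in SCI + Vehicle and 6418 to 7497 CPM in SCI + Atorvastatin. The part of these cell types in the members' values was not tested.

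Gap43 and Stmn2 are both neuronal growth cone genes, and their ratio was looked at after their values were seen. There were 25.0 and 26.1 Gap43 per 100 Stmn2 in normalized CPM in the uninjured mice, 26.4 to 41.9 in SCI + Vehicle and 32.6 to 52.3 in SCI + Atorvastatin. Every injured mouse was above both uninjured mice. The mean log2 ratio was higher by 0.47 in SCI + Vehicle and 0.63 in SCI + Atorvastatin. These differences describe the values above, and no p-value is given for them because the ratio was chosen after the values were seen. On the TPM scale the differences were 0.27 and 0.40, and vehicle mice overlapped the uninjured ones. Between the SCI groups the ratio differed by 0.17 in log2 and the ranges overlapped.

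**Figure D3:**
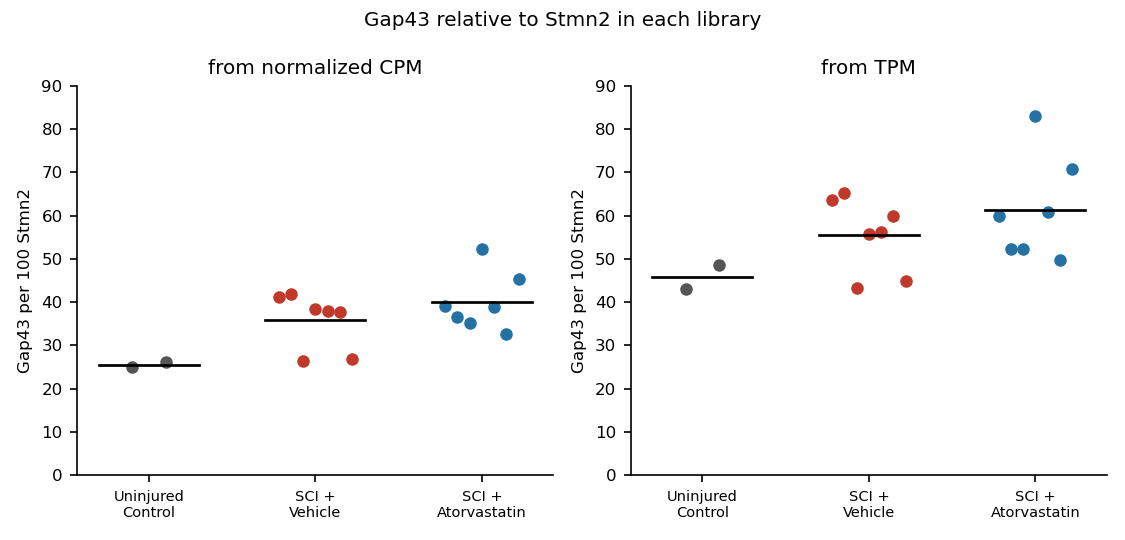
Gap43 per 100 Stmn2 (y axis, linear) in each mouse by group, computed from normalized CPM (left) and from TPM (right). Points are mice and lines are group means; on the left all 14 SCI mice lie above both Uninjured Control mice, and on the right SCI + Vehicle mice overlap them.

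Sprr1a and Gal could not be compared with uninjured cord, because the 2 uninjured mice went opposite ways. Sprr1a, a gene strongly induced in axotomised sensory neurons, had counts of 0 and 139 in them, or 0 and 6.30 CPM. It had 1.32, 4.47 and 7.42 CPM (lowest, median, highest) in SCI + Vehicle and 2.33, 3.21 and 5.11 CPM in SCI + Atorvastatin. Injured values lay between the 2 uninjured mice, apart from 1 vehicle mouse above both. Its log2 fold change was 0.45 ± 1.27 (SE, adjusted p = 0.828, edgeR) in SCI + Vehicle and 0.17 ± 1.15 (adjusted p = 0.931) in SCI + Atorvastatin. It was called higher in both when Uninjured Control replicate 2 was left out, and it was not called without replicate 1, at −0.54 and −0.82. A count of 0 in 1 uninjured mouse was common among genes of this level, as given above. Keratinised epithelium markers, summed over 10 genes, had 12.1 and 17.8 CPM in the uninjured mice, 12.5 to 35.99 CPM in SCI + Vehicle and 22.7 to 47.8 CPM in SCI + Atorvastatin. 6 of the 10, Krt5 and Krt14 among them, had no count in both uninjured mice. Krt5 and Krt14 also had a median of 0 counts in each SCI group and were not tested. Of the 7 markers that were tested, 3 were called higher in each comparison. The part of this epithelium in the Sprr1a values was not tested.

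Gal, which encodes the neuropeptide galanin, had 17.8 CPM in 1 uninjured mouse and no count in the other. It had 4.66, 5.81 and 6.94 CPM (lowest, median, highest) in SCI + Vehicle and 2.06, 4.02 and 4.80 CPM in SCI + Atorvastatin. All injured mice lay between the 2 uninjured mice. Gal had a log2 fold change of −0.62 ± 1.16 (SE, adjusted p = 0.732, edgeR) in SCI + Vehicle and −1.22 ± 1.16 (adjusted p = 0.442) in SCI + Atorvastatin. Without Uninjured Control replicate 1 it was called higher in both, and without replicate 2 it was called lower in both, at −1.63 and −2.23.

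Sensory ganglion neurons are a known source of these 2 genes after nerve injury. Of 11 markers of these neurons, 8 had no count in both uninjured mice. Summed over the 11, the markers had 17.8 and 52.9 CPM in the uninjured mice. Most of this came from Calca, at 6.34 and 31.0 CPM, and Tac1, at 11.4 and 16.1 CPM. Avil, Scn10a, Trpv1 and P2rx3 were among the 8 markers with no count there. The sums were 27.2 to 131 CPM (median 40.1) in SCI + Vehicle and 25.2 to 43.7 CPM (median 35.6) in SCI + Atorvastatin. Of the 11, 6 were tested, and 2 were called higher in SCI + Vehicle and 1 in SCI + Atorvastatin. Avil had 15 to 230 counts in SCI + Vehicle, with a median of 91 and the highest in replicate 3. In SCI + Atorvastatin it had 18 to 88 counts, with a median of 42. The part of ganglion tissue in Sprr1a and Gal was not tested.

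The effect of the drug was read in SCI + Atorvastatin vs. SCI + Vehicle, with a gene called at p below 0.001 before adjustment and a log2 fold change beyond 0.32. No member was called by edgeR, against 0.106% of all genes, and 2 members had an unadjusted p below 0.05, against 7.03% of all genes. DESeq2 also called none, with 3 members at an unadjusted p below 0.05. The ranges overlapped for all 10 members, as they did for all but 0.087% of genes. No gene of the 16091 had an adjusted p below 0.05, and 1132 had an unadjusted p below 0.05.

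The 2 members were Atf3 and Gal. Atf3 was 20.1 ± 3.87 CPM (SD, n = 7) with atorvastatin and 14.2 ± 3.13 CPM (SD, n = 7) with vehicle. All 7 treated mice lay above the vehicle median. The log2 fold change was 0.50 ± 0.16 (SE), with an unadjusted p of 0.00574 and an adjusted p of 0.680 by edgeR. Gal was 3.79 ± 0.899 CPM (SD, n = 7) with atorvastatin and 5.80 ± 0.720 CPM (SD, n = 7) with vehicle. All 7 treated mice lay below the vehicle median. The log2 fold change was −0.61 ± 0.24 (SE), with an unadjusted p of 0.0184 and an adjusted p of 0.680 by edgeR.

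The other 8 members had log2 fold changes between −0.31 (Sprr1a) and 0.11 (Sox11). That of Stmn2 was −0.21 ± 0.10 (SE, unadjusted p = 0.0617, edgeR), with 6 of 7 treated mice below the vehicle median. That of Gap43 was −0.01 ± 0.09 (SE), that of Jun 0.08 ± 0.08 and that of Klf6 0.09 ± 0.13. The spread of the stathmins differed in size: the SD of Stmn2 was 11.8 CPM with atorvastatin and 50.8 CPM with vehicle, and that of Stmn4 was 10.0 and 31.2 CPM. The difference in spread was not tested, and vehicle replicate 7 was the highest vehicle mouse for both genes and the lowest for Klf6 and Klf7.

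Over the 14 SCI mice, with each group centred on its own mean, the 45 pairs had Pearson r from −0.74 to 0.59 with a median of −0.05, and 19 were positive. None had an adjusted p below 0.05 in the permutation test, and 2 had an unadjusted p below 0.05. The lowest r was between Stmn2 and Klf6, at −0.74 (permutation p = 0.0254, adjusted p = 0.608), with Spearman's rho of −0.55 (permutation p = 0.0935, adjusted p = 0.632). Without the 2 mice farthest from the median of Stmn2 it was −0.29, so the relation rested on those mice. Among 12579 other genes the profile most like that of Atf3 was that of Leprot (r = 0.91), that of Gap43 was Pqbp1 (r = 0.85), that of Jun was Prkch (r = 0.85) and that of Klf6 was Frrs1 (r = 0.94), each the highest of a search over that many genes.

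A wider set of 91 regeneration genes in 4 lists gives the surroundings of the members, and 88 of them were tested. Against the Uninjured Control group, 20 were called higher and 9 lower in SCI + Vehicle (29.8% of all genes were called), and 25 higher and 11 lower in SCI + Atorvastatin (38.9% of all genes). Their median log2 fold change was 0.24 and 0.30, against 0.17 and 0.21 over all genes tested. By direction, 3195 of all 16091 genes were called higher and 1594 lower in SCI + Vehicle. In SCI + Atorvastatin, 4003 were called higher and 2256 lower.

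**Figure D4:**
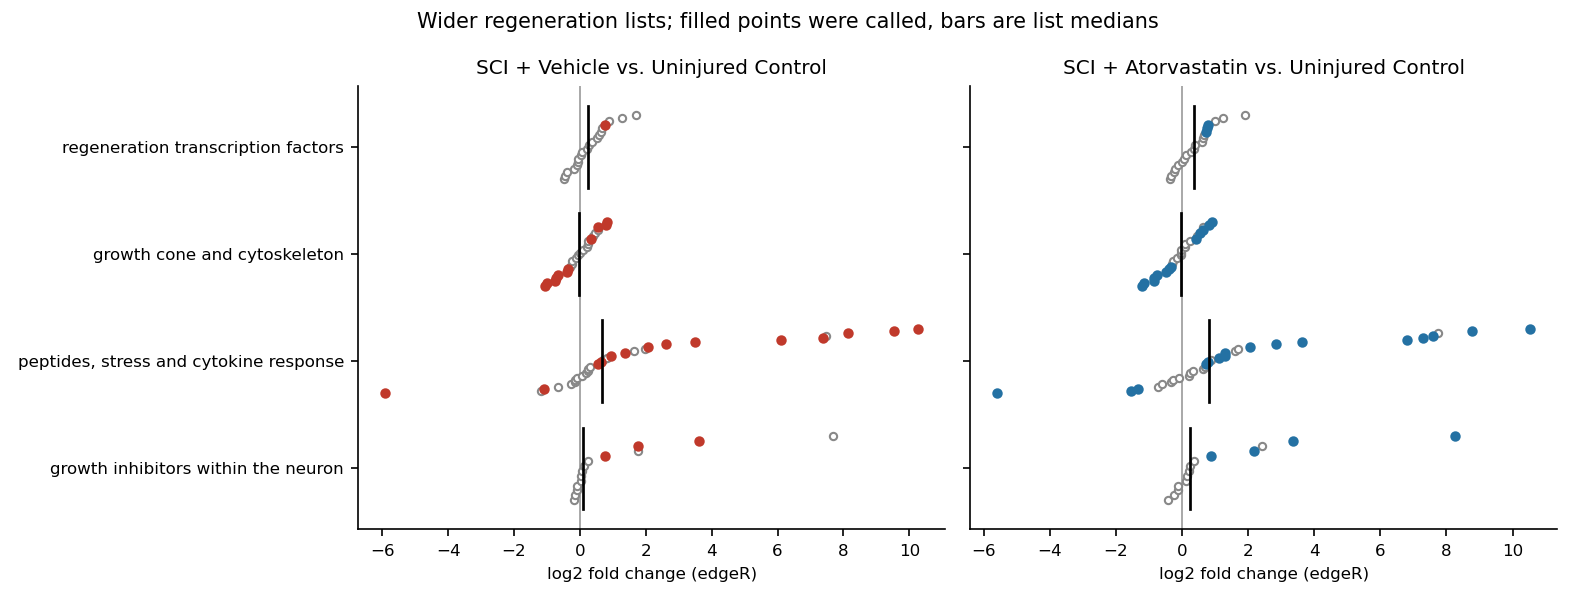
Log2 fold change (x axis, edgeR) of each tested gene of the 4 wider lists in both comparisons with the Uninjured Control group. Filled points were called, open points were not, and black bars are list medians; the growth cone and cytoskeleton list has called genes on both sides of 0, while called genes of the transcription factor and growth inhibitor lists are all to the right.

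Of 20 further transcription factors, 1 was called higher in SCI + Vehicle and 3 in SCI + Atorvastatin, and none was called lower. Both shares of the list were below those of all genes called, 29.8% and 38.9%. Stat3, which carries signals of the IL-6 family to the nucleus, had 73.4 and 92.1 CPM in the uninjured mice and 142 ± 20.8 CPM (SD, n = 7) in SCI + Vehicle. Its log2 fold change was 0.77 ± 0.18 (SE, adjusted p = 0.00858, edgeR) there and 0.73 ± 0.13 (adjusted p = 0.00129) in SCI + Atorvastatin. Sox4, a relative of Sox11, was higher by 0.79 ± 0.21 (adjusted p = 0.0144) in SCI + Atorvastatin, and so was Creb1, the CRE-binding factor, by 0.74 ± 0.24 (adjusted p = 0.0307). In SCI + Vehicle they were at 0.51 ± 0.34 (adjusted p = 0.289, edgeR) and 0.66 ± 0.25 (adjusted p = 0.0681), and were not called. Between the SCI groups they differed by 0.26 ± 0.16 and 0.05 ± 0.07 in log2, and neither was called.

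Of 24 growth cone and cytoskeleton genes, 4 were called higher and 7 lower in SCI + Vehicle, and 5 higher and 8 lower in SCI + Atorvastatin. Over all genes, 29.8% and 38.9% were called in either direction, and the difference from the list was not tested. Most of the lower ones are known as genes of neurons. Tubb3, the neuronal beta tubulin, had 418 and 427 CPM in the uninjured mice, 255 ± 42.8 CPM (SD, n = 7) in SCI + Vehicle and 235 ± 13.6 CPM in SCI + Atorvastatin, with log2 fold changes of −0.74 ± 0.14 (SE, adjusted p = 0.00344, edgeR) and −0.83 ± 0.08 (adjusted p = 4.65e-05). Stmn3, another stathmin, had log2 fold changes of −1.05 and −1.20, and Tmsb10, an actin-binding thymosin, fell by 1.00 in SCI + Vehicle. Basp1, a growth cone protein that works like Gap43, was also lower in both, at −0.73 ± 0.23 (adjusted p = 0.0345) with vehicle and −0.84 ± 0.11 (adjusted p = 0.000258) with atorvastatin. The higher ones included Cotl1, an actin-binding gene abundant in leukocytes, at 90.2 and 96.5 CPM in the uninjured mice and 163 ± 13.6 CPM (SD, n = 7) in SCI + Vehicle, and Dpysl3, Pfn1 and Chl1, which were called in both comparisons. The neuron and microglia marker sums given above moved in the same directions, and their part was not tested.

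Of 30 peptide, stress and cytokine response genes, 12 were called higher and 2 lower in SCI + Vehicle, and 13 higher and 3 lower in SCI + Atorvastatin. Over all genes, 29.8% and 38.9% were called in either direction, and the difference from the list was not tested. Cd44, a receptor for hyaluronan, had 17.4 and 16.7 CPM in the uninjured mice and 106 ± 15.3 CPM (SD, n = 7) in SCI + Vehicle, with a log2 fold change of 2.63 ± 0.20 (SE, adjusted p = 3.37e-05, edgeR), and of 2.83 ± 0.15 (adjusted p = 4.05e-06) in SCI + Atorvastatin. Il6st, the shared receptor of the IL-6 family, was higher by 0.94 ± 0.15 and 1.13 ± 0.09 in log2. Plaur, the urokinase receptor, had no count in both uninjured mice and 4.62 to 9.20 CPM in SCI + Vehicle. Nrn1, which encodes neuritin, had log2 fold changes of −1.08 and −1.33. For Cck, which encodes cholecystokinin, they were −1.18 with vehicle (adjusted p = 0.0608, edgeR), which was not called, and −1.56 with atorvastatin. Arg1, which encodes an arginase tied to axon growth and is also a liver gene, had 79.0 and 29.8 CPM in the uninjured mice and at most 2.10 CPM in any SCI mouse. The liver markers were higher in the same 2 uninjured mice, and their part in the Arg1 result was not tested.

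Of 14 genes that restrain growth from within the neuron, 3 were called higher in SCI + Vehicle and 4 in SCI + Atorvastatin, and none was called lower. Each share was below that of all genes called, 29.8% and 38.9%. Rock1, a kinase downstream of RhoA, was higher by 0.77 ± 0.20 (SE, adjusted p = 0.0153, edgeR) and 0.89 ± 0.17 (adjusted p = 0.00228) in log2. Socs3, which damps Stat3 signalling, had 2.91 and 0 CPM in the uninjured mice and 10.8 to 36.5 CPM in SCI + Vehicle, with an adjusted p of 0.0453 by edgeR. Socs1 had no count in both uninjured mice and 0.243 to 2.45 CPM in SCI + Atorvastatin, where it was called. It was not called in SCI + Vehicle (adjusted p = 0.130, edgeR), and between the SCI groups its log2 fold change was 0.54 ± 0.87 (SE).

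Between the SCI groups, 2 of the 88 genes were called, against 0.106% of all genes, and both were higher with atorvastatin. The paper had already reported both genes, Rest and Klf4, as raised by atorvastatin in these same mice. The lists were chosen with earlier results of these data known, so the share of the lists cannot be judged against that of all genes. The pair did not hold under several other choices: with any 1 mouse left out 0 or 1 gene was called, and 0 were called on log2(TPM + 1) and in a single fit of all 3 groups. Rest, a repressor of neuronal genes, had 35.3 ± 2.03 CPM (SD, n = 7) with atorvastatin and 26.7 ± 3.88 CPM with vehicle, a log2 fold change of 0.40 ± 0.10 (SE) with an unadjusted p of 0.000819 and an adjusted p of 0.680 by edgeR. Klf4, a member of the KLF family that restrains axon growth, had 16.1 ± 4.18 CPM (SD, n = 7) with atorvastatin and 10.2 ± 1.37 CPM with vehicle, a log2 fold change of 0.66 ± 0.17 (SE) with an unadjusted p of 0.000939 and an adjusted p of 0.680. The uninjured mice had 13.9 and 1.72 CPM of Rest and 6.02 and 0 CPM of Klf4. The part of the fibroblast and neuron markers, given above for this comparison, was not tested for either gene. Next in order was Cckbr, the cholecystokinin receptor of neurons, at −0.62 ± 0.21 (SE, unadjusted p = 0.00778, edgeR), which was not called. The growth-promoting members Klf6 and Klf7 had log2 fold changes of 0.09 and −0.10 in the same comparison.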

How the data were processed

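RNA from the spinal cord segments was sequenced from stranded total RNA libraries. The authors trimmed reads with Trimmomatic 0.38 after FastQC 0.12.1, aligned them with STAR 2.5.4b to mm10 and computed TPM with RSEM 1.3.1, as the submitters' processing notes and the methods give it. The deposited counts are whole numbers per gene symbol with no normalization, and the step that made them is not given in the sources used here. The deposited TPM are normalized by the authors for gene length and depth.

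Groups came from the sample labels. Libraries held 14823292 to 25579826 counts. The counts of genes whose mean TPM passed 1 in some group were tested with edgeR 4.0.16 in R 4.3.3 (TMM, quasi-likelihood, library sizes from all genes, only both compared groups in a fit, Benjamini-Hochberg over 16091 genes). Standard errors were derived from the log2 fold change and the quasi-likelihood F. The total over all genes was chosen after a fit on totals of tested genes had been seen, to match the processing of the series as a whole. Correlations used 100000 permutations within group. Alternatives were DESeq2 1.42.0, limma 3.58.1 (voom with group weights, and log2(TPM + 1)), another normalization and filter, all 3 groups in 1 fit, a replicate block and leaving out each mouse. The edgeR and correlation steps were tested on simulated data.

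The members and lists were chosen with earlier results of these data known. Genes named were the members, up to 3 called genes per wider list and direction against the Uninjured Control group, by smallest p, the 3 smallest p over the wider lists between the SCI groups, the genes most like each member and defining markers. Promoters are RefSeq's, and positions are GRCm38. Python 3.11.15 and matplotlib 3.10.9 made the figures.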

Additional observations from a re-analysis of the deposited data

Results flagged for a closer look

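No member of the 10 had a mouse far from the rest of its group. Of 84 groups of 7 mice looked at, 4 had 1 mouse set apart from the others, and about 1 in 20 groups is set apart by chance. In SCI + Vehicle the highest mouse had 86.7 normalized CPM of Nrn1, with the next at 62.9. In SCI + Vehicle the highest mouse had 36.5 normalized CPM of Socs3, with the next at 21.1. The highest SCI + Vehicle mouse for Stmn3 had 498 normalized CPM, with the next at 316. In SCI + Atorvastatin the lowest mouse for Stat3 had 112 normalized CPM, with the next at 138.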

How the results depend on the processing

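Of 264 log2 fold changes of the members under alternatives that kept all mice, 232 kept their direction and their side of the threshold. Against the Uninjured Control group, a limma-voom fit with group weights called 0 members in either comparison (0 and 2 with an unadjusted p below 0.05), and called 1 gene of the wider lists in each. Of all 16091 genes it called only 131 and 145. Counts of called members in SCI + Vehicle, SCI + Atorvastatin vs. Uninjured Control and SCI + Atorvastatin vs. SCI + Vehicle ranged over 1 to 5, 5 to 6 and 0 to 0 when 1 mouse was left out, and those of the wider lists over 19 to 38, 32 to 47 and 0 to 1. Library sizes from tested genes, added after seeing the data, gave 2, 5 and 0 members. Between the SCI groups the 2 wider genes became 1 with voom, under a minimum of 10 counts per mouse and with no filter beyond 1 count, and 0 on log2(TPM + 1) and in a single fit of all 3 groups. The minimum of 10 counts per mouse removed Atf3, Sprr1a and Gal from both comparisons with the uninjured mice.

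Directions reversed in values that were not called in the reported fit. Against the uninjured mice, Gal was called higher without Uninjured Control replicate 1 and lower without replicate 2, and Sprr1a was called higher without replicate 2. On log2(TPM + 1) the log2 difference was 0.011 for Gap43 and 1.44 for Gal in SCI + Vehicle, 0.98 for Gal in SCI + Atorvastatin vs. Uninjured Control, and 0.057 for Klf7 between the SCI groups. With voom Gal was at 3.29 and 2.70. Leaving out 1 mouse, SCI + Vehicle vs. Uninjured Control ranged from −0.27 to 0.23 for Sox11, −0.54 to 9.58 for Sprr1a, −1.63 to 10.0 for Gal and −0.87 to 0.21 for Klf7. SCI + Atorvastatin vs. Uninjured Control ranged from −0.13 to 0.36, −0.82 to 9.33, −2.23 to 9.45 and −0.94 to 0.13 for the same genes. Between the SCI groups the ranges were −0.069 to 0.024 for Gap43, −0.062 to 0.20 for Sox11, −0.14 to 0.016 for Stmn4 and −0.0019 to 0.18 for Klf6. The cause was not tested.

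The replicate numbers do not pair the mice: same-numbered SCI mice had correlations of −0.15 to 0.09 between their deviations from the group means. A replicate block called 0 members in each comparison (3, 2 and 2 with an unadjusted p below 0.05), and 1, 0 and 0 genes of the wider lists. Of all 16091 genes it called only 83, 42 and 8. Under the block Gal was at 3.09 and 2.61, and Sox11 at −0.20 in SCI + Atorvastatin vs. Uninjured Control. With 1 uninjured mouse left, the lone mouse is assumed to vary like the SCI mice. The 2 uninjured libraries limit every comparison with them, most of all for genes of few counts.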
